A study of Mus musculus with 11 samples.

Results

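The 10 genes described here belong to the hedgehog pathway and were followed in the neural tissue of mouse embryos, before and after the neural plate rolls up into a tube. They were chosen by name, with earlier results of these data known: the ligand Shh, the release factor Scube2, the receptor Ptch1, the co-receptors Boc, Cdon and Gas1, the inhibitor Hhip and the transcription factors Gli1, Gli2 and Gli3. All 10 were found among the 18193 genes with a probe set of exactly 1 gene symbol, through 24 of the 45101 probe sets of the array. The probe set with the highest mean over the 11 arrays represented each gene, and all 10 passed the filter on dim probe sets, as did 19 of the 24 probe sets and 13338 genes in all.

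The tissue came from C57BL/6 embryos with no mutation or treatment named, in 4 groups: closed neural tube at E9.5 (embryonic day 9.5, n = 3), open neuroepithelium at E9.5 (n = 3), closed tube at E8.5 (n = 2) and open neuroepithelium at E8.5 (n = 3). Each array held RNA pooled by litter, drawn from 111 embryos in all, and a further closed E8.5 array was removed by the authors for its quality. Pieces were cut after a protease digestion of 8 min at E9.5 and 5 min at E8.5, and the notochord was left attached. Open tissue lay caudal to the point where the tube closes and closed tissue rostral to it. Closure and axial level therefore cannot be told apart, nor can stage and digestion time. Because the pieces were defined by this point, a region may also come from different axial levels at the 2 stages. Differences between the stages are thus not shown to be changes within the same tissue. In such bulk tissue, fewer cells of a type and less RNA per cell cannot be told apart either.

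Hedgehog is a secreted protein that the notochord, and later the floor plate, send into the ventral neural tube. When it binds Ptch1, helped by Boc, Cdon and Gas1, Ptch1 stops holding back the membrane protein Smoothened, and the Gli factors then switch on target genes. Ptch1, Gli1 and Hhip are themselves targets, so their RNA is a common readout of the signal, whereas Boc, Cdon and Gas1 are known as genes that the signal turns down in the neural tube.

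The labelled tissue was checked against its markers. Neural progenitor genes (10 of 10 above the filter) had a mean signal of 8.88 to 8.99 (log2) on the closed E9.5 arrays, 7.23 to 7.35 on the open E9.5 arrays, 9.02 to 9.31 on the closed E8.5 arrays and 7.19 to 7.39 on the open E8.5 arrays. Caudal progenitor genes (8 of 8) ran the other way, at 7.75 to 7.80, 10.4 to 10.7, 7.18 to 7.23 and 10.1 to 10.6 in the same order of groups. Among the neural genes, Zic1 reached the filter of 4.30 only through closed tissue, with 3.01 to 3.89 on the open arrays, so it had to differ. Among the caudal genes, Fgf8 lay near or under the filter on the closed arrays, at 3.82 to 4.58. The means of both lists include these genes and are a description. The arrays also differed in RNA quality. The 3-prime minus 5-prime signal of the control probe sets for Gapdh and Actb, which grows as RNA is degraded or labelled short, was 2.20 and 2.48 on open E9.5 arrays 1 and 2, and 1.14 to 1.82 (log2) on the other 9. Genes of neighbouring tissues were read as well. Presomitic mesoderm genes (8 on the array, 1 below the filter) had a mean of 5.73 to 5.85 in closed and 6.24 to 6.74 in open tissue at E9.5, and of 5.67 to 5.71 in closed and 6.67 to 6.92 in open tissue at E8.5. Of the 7 tested, 3 were lower in closed tissue at both stages, Tbx6, Hes7 and Dll3, and 1 was higher at E9.5, Dll1. Blood genes (6, 2 below the filter) had a mean of 6.58 to 7.30 in closed and 7.22 to 7.37 in open tissue at E9.5, and of 5.88 to 6.02 in closed and 4.81 to 5.90 in open tissue at E8.5. The part of these tissues in the results on the members was not tested. Somite genes stood out on 1 array: their mean was 5.35 on closed E8.5 array 2, against 4.40 on closed E8.5 array 1 and 4.19 to 4.36 on the other 9 arrays.

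All signals below are deposited log2 values. Regional differences are closed minus open, differences between stages are E9.5 minus E8.5, and each has its standard error (SE) from a limma model of the 4 group means. A gene was counted as changed at a Benjamini-Hochberg adjusted p under 0.05 over the 13338 genes. Of the 10 members, 5 were higher and 0 lower in closed than in open tissue at E9.5, where 8.54% of all genes tested passed in either direction (2.75% higher, 5.79% lower). At E8.5, 5 were higher and 1 lower, against 7.17% of all genes (3.79% higher, 3.38% lower). The median difference over the members was 0.69 at E9.5 and 0.60 at E8.5, against −0.0069 and 0.0015 over all genes. The signals of the 2 regions did not overlap for 6 members at E9.5, where this held for 22.5% of all genes, and for 9 at E8.5, where it held for 27.5%. Hhip reached the filter only through its closed arrays, so it had to differ, and its call is not counted as support. Without it, 4 of 9 members were higher at each stage. The medians and the counts of members without overlap still include Hhip, so they are a description and not support either. Scube2, Gas1 and Boc were higher in closed tissue at both stages and Cdon at E8.5, Shh changed in opposite directions, and Ptch1, Gli1, Gli2 and Gli3 did not pass.

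**Figure D1:**
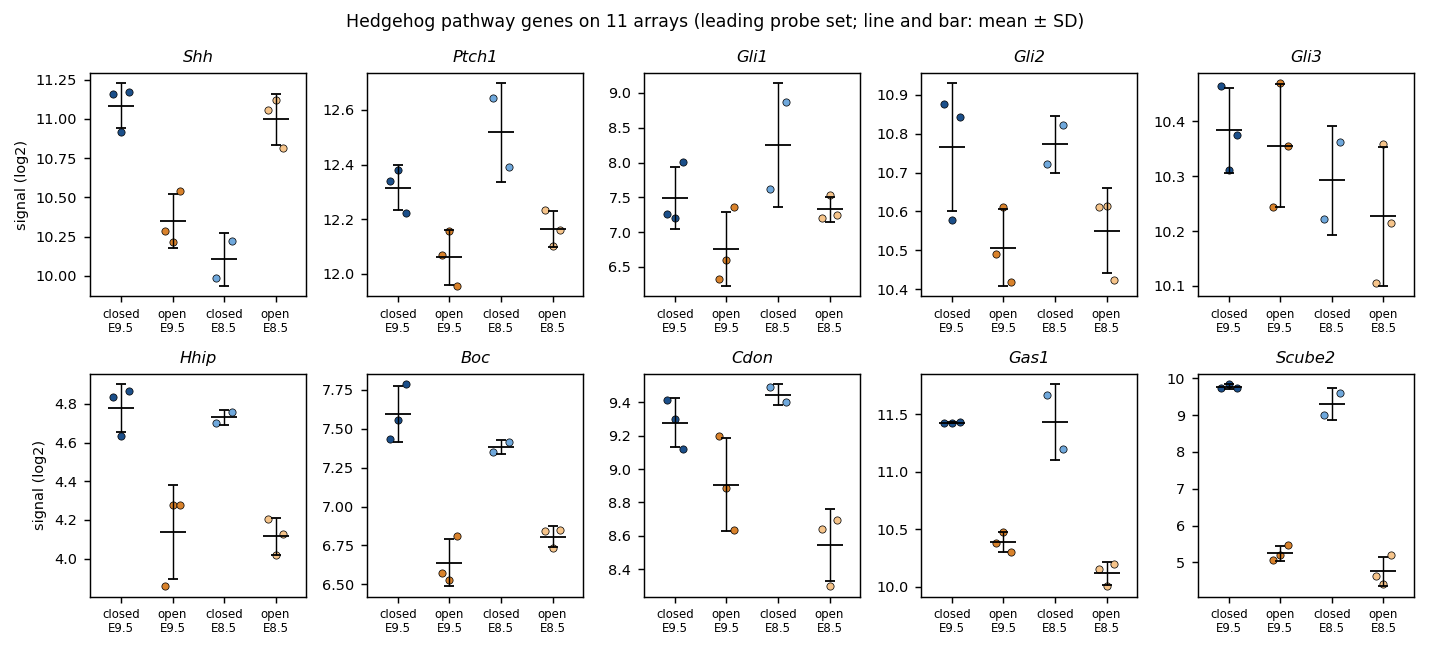
Signal (log2, a scale of its own in each panel) of the leading probe set of each hedgehog gene on each of 11 arrays; points are arrays, the horizontal line is the group mean and the bar 1 SD either way. Scube2 and Gas1 show 2 separate levels by region at both stages, while Shh is high in closed E9.5 and open E8.5 tissue and low in the other groups.

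Shh, the ligand gene (probe set 1436869_at; chr5:28456840-28467101, GRCm38.p6), was the member whose regional pattern turned over between the stages. Its signal was 11.16, 10.92 and 11.17 on the closed E9.5 arrays, against 10.28, 10.22 and 10.54 on the open E9.5 arrays. At E8.5 it was 9.99 and 10.23 in closed tissue, against 11.06, 11.12 and 10.81 in open tissue. The regions did not overlap at either stage: every closed array was above every open array at E9.5 and below every open array at E8.5. The difference was 0.74 (SE 0.13, adjusted p = 0.00292), or 1.67-fold higher in closed tissue, at E9.5. It was −0.89 (SE 0.14, adjusted p = 0.00191), or 1.86-fold lower in closed tissue, at E8.5.

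Between the stages, Shh signal was higher at E9.5 in the closed tube and lower at E9.5 in the open plate, while the mean of the blood genes was above every E8.5 array on every E9.5 array of both regions (3 of 4 tested were higher at E9.5 in open and 0 in closed tissue). In closed tissue the signal at E9.5 was higher than at E8.5 by 0.98 (SE 0.14, adjusted p = 0.00277). In open tissue the signal at E9.5 was lower than at E8.5 by 0.65 (SE 0.13, adjusted p = 0.0114). The change of the regional difference between the stages, tested as an interaction, was 1.63 (SE 0.19, 95% confidence interval 1.21 to 2.05, adjusted p = 0.00168). Among the members, Shh alone passed this test (1 of 10), which 1.25% of all genes passed (0.3% upward, 0.952% downward).

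No other member passed a comparison of stages. In closed tissue 1 of 10 was higher and 0 lower at E9.5, against 2.42% of all genes (0.96% higher, 1.46% lower), and in open tissue 0 were higher and 1 lower, against 5.02% (3.61% higher, 1.42% lower). The stages did not overlap for 4 members in closed tissue, where this held for 21.2% of all genes, and for 2 in open tissue, where it held for 21.8%. By group mean the order of the Shh signal was closed E9.5 (11.08 ± 0.14, SD, n = 3), open E8.5 (10.997 ± 0.16, n = 3), open E9.5 (10.35 ± 0.17, n = 3) and closed E8.5 (10.11 ± 0.17, n = 2). The arrays of the 2 upper groups overlapped, and so did those of the 2 lower groups, by a narrow margin.

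Some of these calls leaned on single arrays. The stage difference of Shh in open tissue did not pass without open E9.5 array 1 (adjusted p = 0.0545) or open E9.5 array 2 (0.0551). Nor did it pass without open E8.5 array 1 (0.0613) or open E8.5 array 2 (0.0563). Open E9.5 arrays 1 and 2 had the highest 3-prime minus 5-prime signal. Without both, the stage difference in open tissue was −0.46 and the regional difference at E9.5 was 0.54, and neither call held. The lower signal of closed tissue at E8.5, the stage difference in closed tissue and the interaction passed in every alternative in which they were run. A second Shh probe set, 1427571_at, was below the filter, at 3.44 to 3.89 on all arrays, and carries no further measurement.

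Because notochord was left on the tissue, genes of the notochord and floor plate, both of which make Shh, were read beside it. Floor plate genes other than Shh (8 of 9 on the array with 1 symbol, 2 of them below the filter) had a mean signal of 7.44 to 7.58 in closed and 6.37 to 6.76 in open tissue at E9.5, and of 7.37 to 7.53 in closed and 6.56 to 6.73 in open tissue at E8.5. The mean of the list was thus above that of open arrays on every closed array at both stages. Of the 6 tested, 4 were higher in closed tissue at E9.5 and 3 at E8.5, and 0 were lower. Slit2 and Sulf1 had differences below 0, of −0.42 and −0.53 at E9.5 (adjusted p = 0.413 and 0.287) and −0.66 and −0.18 at E8.5 (adjusted p = 0.269 and 0.941). Spon1, a secreted floor plate protein, had 9.46, 8.65 and 8.81 in closed against 5.50, 5.87 and 5.60 in open tissue at E9.5, and 9.09 and 9.05 in closed against 6.34, 6.32 and 6.20 in open tissue at E8.5. Ntn1, the gene of the axon guidance protein netrin, was also higher in closed tissue, by 2.40 (SE 0.17, adjusted p = 3.38e-06) at E9.5 and 1.86 (SE 0.19, adjusted p = 6.77e-05) at E8.5. Foxa2, a transcription factor of both notochord and floor plate, was higher in closed tissue at E9.5 (0.87, SE 0.21, adjusted p = 0.0228), and its difference at E8.5 was 0.59 (SE 0.24, adjusted p = 0.232).

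Notochord genes other than Shh (9 of 11, 1 of them below the filter) gave 6.04 to 6.17 in closed and 5.83 to 6.09 in open tissue at E9.5, and 5.82 to 6.16 in closed and 6.10 to 6.25 in open tissue at E8.5. At E8.5, 4 of the 8 tested were lower and 1 was higher in closed tissue. Chrd, a secreted BMP antagonist of the notochord and node, had 5.74 and 5.62 in closed against 6.51, 6.49 and 6.22 in open E8.5 tissue, a difference of −0.72 (SE 0.14, adjusted p = 0.00593). The others that were lower were Cav1 (−0.94, SE 0.13, adjusted p = 0.000574), the keratin gene Krt19 (−1.19, SE 0.28, adjusted p = 0.0231) and Ripply3 (−0.97, SE 0.16, adjusted p = 0.00224), and Sox9 was higher (1.24, SE 0.19, adjusted p = 0.00122). At E9.5, Foxa2 and Sox9 (1.97, SE 0.17, adjusted p = 1.27e-05) were higher in closed tissue, and Tmem176a (−0.58, SE 0.13, adjusted p = 0.014) and Ripply3 (−0.80, SE 0.14, adjusted p = 0.00336) were lower. Krt19 and other keratin genes are also made by surface ectoderm. Surface ectoderm genes (8 of 8) had a mean of 5.83 to 5.97 in closed and 6.10 to 6.13 in open tissue at E9.5, and of 5.95 to 6.03 in closed and 6.55 to 6.75 in open tissue at E8.5. The endoderm list, of which 6 of 12 were below the filter, gave 4.76 to 4.89 in closed and 4.82 to 5.04 in open tissue at E9.5, and 4.95 to 5.04 in closed and 4.96 to 5.13 in open tissue at E8.5. The part of the attached notochord, or of any other tissue, in the Shh pattern was not tested. The genes T and Noto, which define the notochord, were not analysed here.

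**Figure D2:**
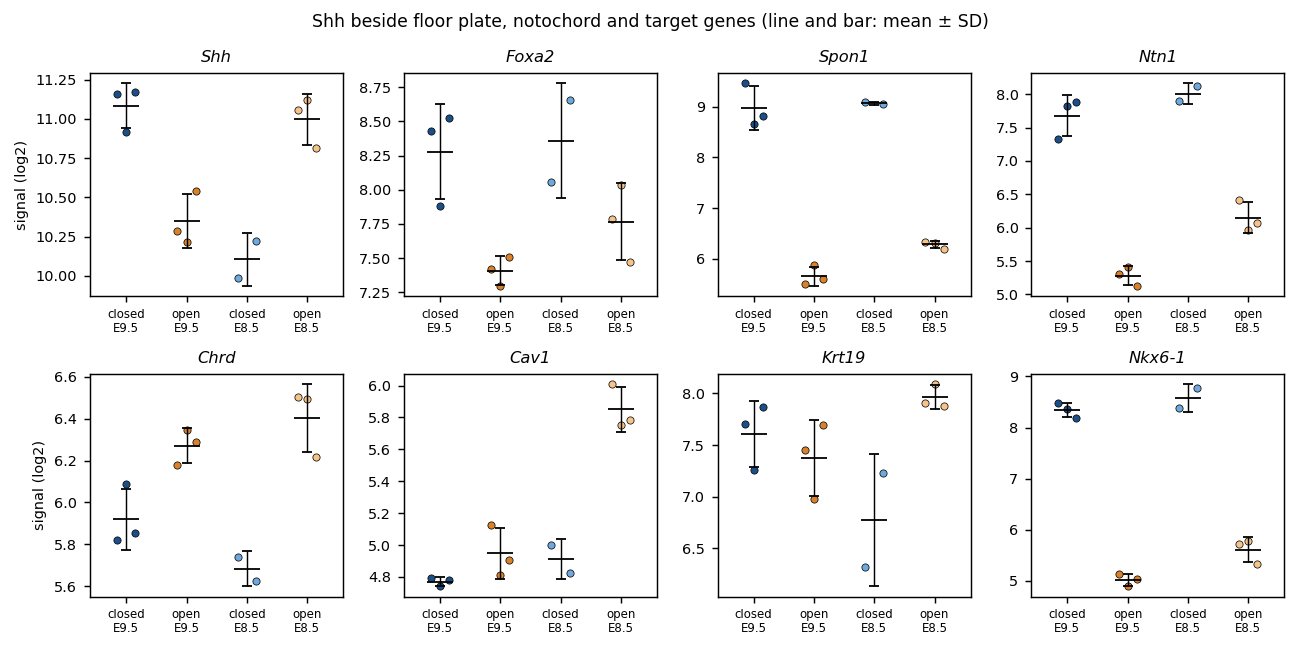
Signal (log2, a scale of its own in each panel) of Shh, the floor plate genes Foxa2, Spon1 and Ntn1, the notochord list genes Chrd, Cav1 and Krt19, and the ventral target Nkx6-1 on 11 arrays; points are arrays, lines group means and bars 1 SD either way. Spon1, Ntn1 and Nkx6-1 are higher in closed than open tissue at both stages, and the 3 open E8.5 arrays are the highest or among the highest for Chrd, Cav1 and Krt19.

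Scube2 (1453486_a_at; chr7:109798690-109865679, GRCm38.p6), whose secreted protein helps lipid-modified hedgehog leave the cell that makes it, had the largest regional difference of the 10 members at both stages. Its signal was 9.74, 9.86 and 9.74 on the closed E9.5 arrays, against 5.05, 5.21 and 5.47 on the open E9.5 arrays. In E8.5 tissue it was 8.99 and 9.61 closed, against 4.63, 4.42 and 5.21 open. The lowest closed array of either stage thus lay far above the highest open array. The difference was 4.53 at E9.5 (SE 0.21, 23.1-fold, adjusted p = 1.44e-07) and 4.55 at E8.5 (SE 0.24, 23.4-fold, adjusted p = 3.03e-07), and the interaction was −0.02 (95% confidence interval −0.72 to 0.68, adjusted p = 0.992). Between the stages its signal differed by 0.48 in closed and 0.49 in open tissue, neither past the threshold (adjusted p = 0.581 and 0.255).

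The other genes of ligand supply were read from a list. Of 14 other ligand and release genes, all of them tested, 0 were higher and 1 was lower in closed tissue at E9.5, and 1 was higher and 1 lower at E8.5. Scube3, a relative of Scube2, differed by 0.34 at E9.5 (SE 0.14, adjusted p = 0.197) and was higher in closed tissue by 0.94 at E8.5 (SE 0.16, adjusted p = 0.00274). Scube1, of the same family, differed by 0.13 (adjusted p = 0.612) and 0.16 (adjusted p = 0.741). Gpc4, a glypican, one of the cell surface proteoglycans that bind hedgehog and other ligands, was lower in closed tissue, with differences of −1.57 at E9.5 (SE 0.19, adjusted p = 0.000194) and −2.15 at E8.5 (SE 0.21, adjusted p = 4.19e-05). Ext1, which builds the heparan sulfate chains of such proteoglycans, differed by −0.21 and −0.57, neither past the threshold (adjusted p = 0.557 and 0.109). The other hedgehog ligand genes lay near the filter of 4.30, Ihh at 4.13 to 4.88 and Dhh at 4.08 to 4.68 over all arrays.

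Gas1 (1416855_at; chr13:60174405-60177535, GRCm38.p6), a co-receptor anchored to the membrane by a lipid, had 11.42, 11.42 and 11.43 on the closed E9.5 arrays, against 10.38, 10.48 and 10.30 on the open E9.5 arrays. At E8.5 its signal was 11.67 and 11.20 in closed tissue, against 10.15, 10.004 and 10.20 in open tissue. Again every closed array lay above every open one, and the closed E9.5 arrays were nearly equal. The difference was 1.04 at E9.5 (SE 0.12, adjusted p = 0.00013) and 1.32 at E8.5 (SE 0.13, adjusted p = 5.17e-05). A second probe set, 1448494_at, gave 1.32 and 1.29 (adjusted p = 0.00271 and 0.00725, in a fit of 23203 probe sets one by one, as for every second probe set below), while another, 1456322_at, gave 0.24 and 0.11 and did not pass.

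Boc (1427516_a_at; chr16:44485045-44558870, GRCm38.p6), a co-receptor of the immunoglobulin family, had 7.43, 7.56 and 7.79 in closed tissue, against 6.57, 6.53 and 6.81 in open tissue, at E9.5. Its E8.5 signal was 7.35 and 7.42 in closed tissue, against 6.84, 6.73 and 6.85 in open tissue. The regions did not overlap at either stage. The difference was 0.96 at E9.5 (SE 0.13, adjusted p = 0.000439) and 0.58 at E8.5 (SE 0.14, adjusted p = 0.0293), and the change between stages did not pass (interaction 0.38, adjusted p = 0.577). The E8.5 call was lost without any 1 of the 5 E8.5 arrays (adjusted p of 0.072 to 0.161) and in a fit of the E8.5 groups alone (0.0513). A second probe set, 1426869_at, gave larger differences, 1.75 at E9.5 and 1.31 at E8.5 (adjusted p = 0.00079 and 0.0124).

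Cdon (1434957_at; chr9:35421528-35507652, GRCm38.p6), the close relative of Boc, had 9.41, 9.30 and 9.12 in closed tissue at E9.5, against 9.20, 8.89 and 8.64 in open tissue, where the regions overlapped. At E8.5 they did not: the signal was 9.49 and 9.40 in closed tissue, against 8.64, 8.30 and 8.70 in open tissue. The difference was 0.37 at E9.5 (SE 0.16, adjusted p = 0.226) and 0.90 at E8.5 (SE 0.18, adjusted p = 0.0082). That the call fell at 1 stage does not show that the stages differ: the interaction was −0.53 (95% confidence interval −1.06 to −0.0046, adjusted p = 0.515). The E8.5 call was lost without closed E8.5 array 1 (adjusted p = 0.0600), and the E9.5 difference passed with arrays of the same number as a random block (adjusted p = 0.0385) or with the 3-prime minus 5-prime signal as a covariate (0.52, adjusted p = 0.0222). A second probe set, 1421452_at, gave 0.15 and 0.12 and did not pass at either stage.

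The regions upstream of Scube2 and Gas1, the members with the largest differences in closed tissue, are shown with that of Gli3, the member with the smallest, for the sequence behind both kinds of gene. They are the 250 bases before the annotated start in RefSeq (GRCm38.p6), 5′ to 3′ on the strand of the gene, at chr7:109865680-109865929 (minus strand, Scube2), chr13:60177536-60177785 (minus strand, Gas1) and chr13:15463473-15463722 (plus strand, Gli3). All 3 windows lie outside the annotated gene. Capitals mark the letters GGGTGG, the reverse of CCACCC, which is the core of the sequence that Gli proteins bind.
Scube2: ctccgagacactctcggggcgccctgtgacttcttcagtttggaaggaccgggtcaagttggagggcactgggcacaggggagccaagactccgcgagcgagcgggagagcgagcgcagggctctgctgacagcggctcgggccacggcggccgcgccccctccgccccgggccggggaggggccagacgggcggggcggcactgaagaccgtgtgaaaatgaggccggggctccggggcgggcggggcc
Gas1: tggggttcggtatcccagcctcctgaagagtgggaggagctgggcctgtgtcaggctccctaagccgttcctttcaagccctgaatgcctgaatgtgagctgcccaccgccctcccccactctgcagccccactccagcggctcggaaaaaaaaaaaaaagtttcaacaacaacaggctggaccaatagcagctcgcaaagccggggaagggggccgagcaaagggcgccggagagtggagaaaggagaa
Gli3: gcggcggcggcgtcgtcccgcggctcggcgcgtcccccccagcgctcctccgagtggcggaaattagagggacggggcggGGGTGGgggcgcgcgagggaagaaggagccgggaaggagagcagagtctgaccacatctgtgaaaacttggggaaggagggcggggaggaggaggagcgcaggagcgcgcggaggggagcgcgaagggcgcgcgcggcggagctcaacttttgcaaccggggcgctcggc
Their G and C content was 73.6%, 58.8% and 72.8%, with 27, 10 and 34 CpG pairs, against a median of 52.4% and 6 CpG pairs over 32851 promoters. Of the members, 7 were in that table, and the windows of Ptch1, Gli2, Hhip and Cdon overlap the annotated gene. The 9-letter Gli motif GACCACCCA (or TGGGTGGTC on the other strand) was in none of the 7 and in 0.225% of all promoters. Its core CCACCC, which that motif contains, was in 3 of the 7 (Gli2, Gli3 and Hhip) on either strand and in 28.1% of all promoters. A match is a string of letters and not a measured site, and a missing match says only that the letters are not in this window.

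Of the receptors and targets of the signal, Ptch1 (1428853_at; chr13:63508328-63573460, GRCm38.p6) had 12.34, 12.38 and 12.22 in closed tissue, against 12.07, 12.16 and 11.96 in open tissue, at E9.5. The E8.5 signal was 12.64 and 12.39 in closed tissue, against 12.23, 12.10 and 12.16 in open tissue. Every closed array was above every open array of its stage, but by little. The difference was 0.26 at E9.5 (SE 0.088, 95% confidence interval 0.06 to 0.45, adjusted p = 0.115) and 0.35 at E8.5 (SE 0.099, 95% confidence interval 0.14 to 0.57, adjusted p = 0.0562), and neither passed. With arrays of the same number taken as a random block, both did (adjusted p = 0.012 at E9.5 and 0.00546 at E8.5), as they did with the 3-prime minus 5-prime signal as a covariate (0.00402 and 0.0114). The E8.5 difference also passed with arrays centred on their median (0.0226), without closed E8.5 array 2 (0.48, 0.0326) and without open E9.5 array 3 (0.0398). The 2 further probe sets of Ptch1, at 0.44 and 0.16 (E9.5) and 0.06 and 0.09 (E8.5), did not pass.

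Hhip (1437933_at; chr8:79965850-80058060, GRCm38.p6), which binds hedgehog at the cell surface and keeps it from the receptor, had 4.83, 4.64 and 4.87 in closed tissue, against 3.86, 4.28 and 4.28 in open tissue, at E9.5. In E8.5 tissue it was 4.70 and 4.76 closed, against 4.20, 4.02 and 4.13 open. Open arrays lay under the filter of 4.30 and closed arrays just above it, so the signal was dim throughout. The gene reached the filter only through closed tissue, and the size of the difference depends on the background. The difference was 0.64 at E9.5 (SE 0.12, adjusted p = 0.00577) and 0.61 at E8.5 (SE 0.14, adjusted p = 0.0173). A second probe set, 1455277_at, with open group means of 3.66 and 4.01 under the filter as well, gave 1.24 and 1.32 (adjusted p = 0.00534 and 0.0081), and 2 more were below the filter. The E8.5 call was lost without closed E8.5 array 1 (adjusted p = 0.0653) or array 2 (0.104) and without open E8.5 array 2 (0.0683) or array 3 (0.0567). The E9.5 call was lost without open E9.5 arrays 1 and 2 together (0.50, adjusted p = 0.0978).

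Gli1 (1449058_at; chr10:127329882-127341579, GRCm38.p6), the Gli factor made in answer to the signal, had the largest standard errors of the 10 members. Its signal was 7.27, 7.20 and 8.00 in closed tissue, against 6.32, 6.60 and 7.35 in open tissue, at E9.5. It was 7.62 and 8.88 in closed tissue, against 7.20, 7.54 and 7.25 in open tissue, at E8.5. The regions overlapped at E9.5 and not at E8.5, although the 2 closed arrays at E8.5 lay far apart (SD 0.89). The difference was 0.73 at E9.5 (SE 0.34, 95% confidence interval −0.02 to 1.48, adjusted p = 0.272) and 0.92 at E8.5 (SE 0.38, 95% confidence interval 0.08 to 1.75, adjusted p = 0.26). Neither passed the threshold over all genes. The interval at E9.5 includes 0, and that at E8.5 lies just above it.

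The spread of Gli1 was set beside the quality of the RNA. In each of the 4 groups, the array with the highest Gli1 signal was the array with the lowest 3-prime minus 5-prime signal. The same match was seen for other genes, such as Sox3 and Fkbp8, and its share over all genes was not determined. The part of RNA quality in the Gli1 signal was not tested. With the 3-prime minus 5-prime signal as a covariate, the regional difference of Gli1 was 0.27 at E9.5 (adjusted p = 0.456) and 1.15 at E8.5 (adjusted p = 0.00311). In that fit Gli1 was also lower at E9.5 than at E8.5 in closed tissue (difference −0.81, adjusted p = 0.0484). The array with the highest Gli1 signal of all, closed E8.5 array 2, was also the one with the high somite genes, such as Meox1, at 8.11 there against 6.30 on closed E8.5 array 1. Without closed E8.5 array 2 the E8.5 difference was 0.29 (adjusted p = 0.795), and without closed E8.5 array 1 it was 1.55 (adjusted p = 0.0375). With arrays of the same number as a random block, Gli1 passed at both stages (adjusted p = 0.0436 at E9.5 and 0.047 at E8.5).

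**Figure D3:**
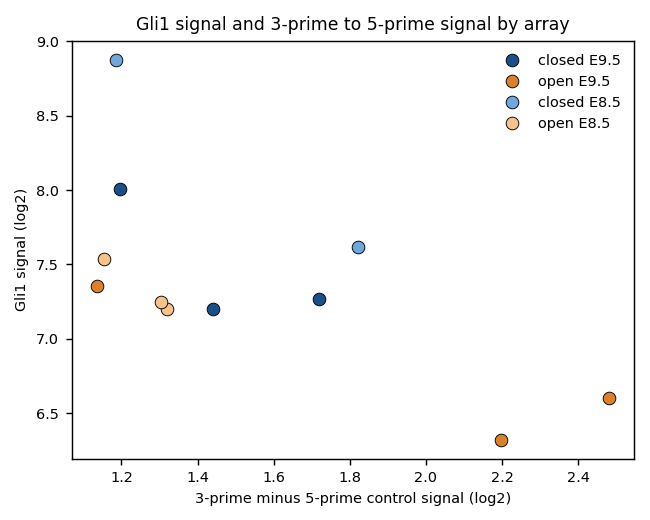
Gli1 signal (log2, vertical) against the 3-prime minus 5-prime signal of the controls for Gapdh and Actb (log2, horizontal), 1 point per array, coloured by group. Open E9.5 arrays 1 and 2, at 2.20 and 2.48, have the lowest Gli1 signals (6.32 and 6.60), and closed E8.5 array 2 the highest (8.88).

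Gli2 and Gli3, the factors through which the signal first acts, mainly as activator and repressor, did not pass in any comparison. Gli2 (1459211_at; chr1:118834061-119054405, GRCm38.p6) had 10.88, 10.58 and 10.84 in closed tissue, against 10.49, 10.61 and 10.42 in open tissue, at E9.5. Its E8.5 signal was 10.72 and 10.82 in closed tissue, against 10.61, 10.61 and 10.42 in open tissue. The regions overlapped at E9.5 and not at E8.5, with differences of 0.26 (95% confidence interval 0.02 to 0.50, adjusted p = 0.206) and 0.22 (−0.04 to 0.49, adjusted p = 0.481). Gli3 (1455154_at; chr13:15463723-15730026, GRCm38.p6) had 10.46, 10.31 and 10.38 in closed tissue, against 10.24, 10.47 and 10.35 in open tissue, at E9.5, and 10.22 and 10.36 in closed tissue, against 10.11, 10.36 and 10.21 in open tissue, at E8.5. The regions overlapped at both stages. Its differences of 0.03 at E9.5 (95% confidence interval −0.20 to 0.26) and 0.07 at E8.5 (−0.19 to 0.32) were the smallest of the 10 members.

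**Figure D4:**
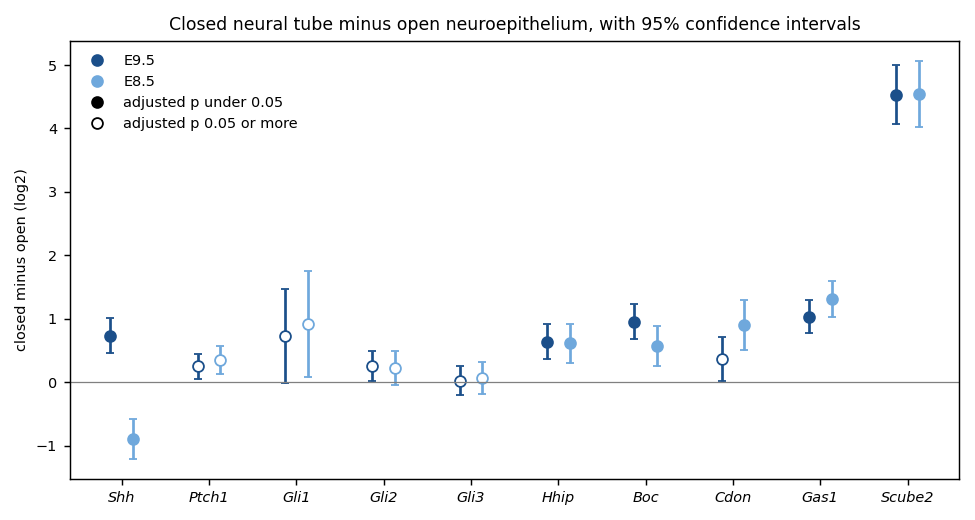
Closed minus open difference (log2) of the 10 hedgehog genes at E9.5 (dark) and E8.5 (light), with 95% confidence intervals from the model; filled points have an adjusted p under 0.05. Scube2 stands at 4.53 and 4.55, Shh lies on opposite sides of 0 at the 2 stages, and the intervals of Gli1 are the widest.

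The arrays were also set side by side by replicate number, as 5 pairs of closed and open arrays (3 at E9.5, 2 at E8.5), although the labels do not say that a number marks a litter. Closed was above open in 5 of 5 pairs for Ptch1, Gli1, Hhip, Boc, Cdon, Gas1 and Scube2, and in 4 of 5 for Gli2 and Gli3. For Ptch1, Hhip, Boc, Gas1 and Scube2 the regions did not overlap at either stage, so any pairing gives 5 of 5. The share of all genes with such counts was not determined, so the counts only describe the arrays. For Ptch1 the pair differences were close together, from 0.22 to 0.41, and for Gli1 they ran from 0.42 to 1.34. For Shh, closed was above open in 3 of 5 pairs, those at E9.5, which the lack of overlap also fixed.

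The rest of the pathway was read from lists by role, against 8.54% of all genes past the threshold at E9.5 and 7.17% at E8.5. Of 19 intracellular regulators, 0 passed in either direction at either stage, with adjusted p-values no lower than that of Tulp3, an adaptor for transport into the cilium (−0.46 at E9.5, SE 0.16, adjusted p = 0.106). Prkar1a and Prkaca, subunits of the protein kinase A that marks Gli proteins for processing, differed by 0.02 and −0.11 at E9.5 and by 0.51 and 0.44 at E8.5 (adjusted p from 0.277 to 0.967). Of 16 genes tested for transport in the cilium, where the pathway is switched, 0 passed at E9.5 and 1 was higher in closed tissue at E8.5, Ttc21b, at 0.47 (SE 0.13, adjusted p = 0.0485). Of 9 other receptor and membrane genes tested, 1 was lower in closed tissue at E9.5 and 1 higher at E8.5. The lower one was Lrp2, an endocytic receptor that takes up hedgehog (−1.04, SE 0.26, adjusted p = 0.0295), which had 7.19, 6.89 and 6.62 in closed against 8.41, 8.21 and 7.19 in open E9.5 tissue. The 2 high values were those of open E9.5 arrays 1 and 2, the arrays with the highest 3-prime minus 5-prime signal. Dhcr7, the last enzyme in the synthesis of cholesterol, which hedgehog signalling needs, was higher in closed tissue by 0.67 at E8.5 (SE 0.15, adjusted p = 0.0152), and its regional difference changed between the stages (interaction −1.11, SE 0.20, adjusted p = 0.0207).

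Genes that hedgehog switches on or off in the neural tube were compared as well. Of 7 ventral target genes tested, 6 were higher in closed tissue at E9.5 and 5 at E8.5. Of these, Olig2, Olig1 and Nkx2-2 reached the filter only through closed tissue and so had to differ. Of the other 4, 3 were higher at E9.5 (Foxa2, Nkx2-9 and Nkx6-1) and 2 at E8.5 (Nkx2-9 and Nkx6-1). Foxa2 and Nkx2-9 are also in the floor plate list, so the 2 lists are not separate observations. Nkx6-1, a ventral progenitor factor, had 8.48, 8.36 and 8.20 in closed against 5.13, 4.89 and 5.04 in open E9.5 tissue, and 8.38 and 8.78 in closed against 5.73, 5.78 and 5.32 in open E8.5 tissue. Olig2, the factor of motor neuron progenitors, had 6.99, 7.63 and 8.23 in closed against 3.47, 3.76 and 3.75 in open E9.5 tissue, and 7.30 and 8.18 in closed against 3.72, 3.69 and 3.55 in open E8.5 tissue. Its open signals lie under the filter of 4.30, so the size of its difference depends on the background. Of 6 dorsal and intermediate factors tested, which hedgehog holds back, 5 were higher in closed tissue at each stage as well, with medians of 1.51 and 1.54. Pax6 was higher by 3.13 (SE 0.16, adjusted p = 2.57e-07) at E9.5 and 3.83 (SE 0.18, adjusted p = 2.08e-07) at E8.5, and Pax3, a dorsal factor, by 1.09 (SE 0.16, adjusted p = 0.000763) and 2.16 (SE 0.17, adjusted p = 8.77e-06). Ventral and dorsal genes were therefore both higher in closed tissue, beside the neural progenitor genes above. The part of the neural progenitor difference in the member differences was not tested.

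**Figure D5:**
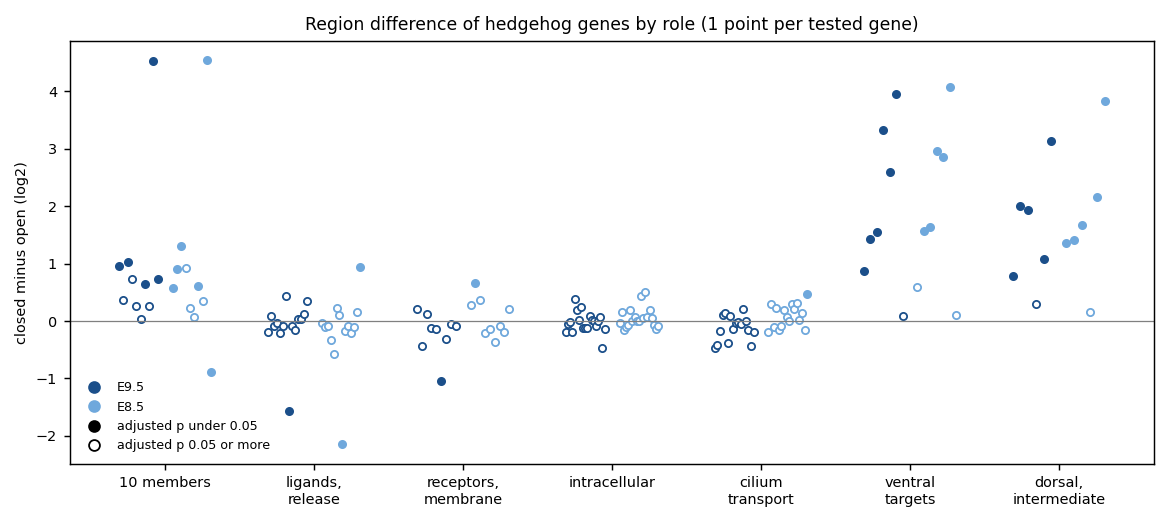
Closed minus open difference (log2) of each tested gene of the hedgehog lists, grouped by role, at E9.5 (dark) and E8.5 (light); filled points have an adjusted p under 0.05. The intracellular and cilium genes lie on both sides of 0 with 1 filled point among them (Ttc21b), while most ventral and dorsal neural tube genes lie above 0.

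The genes whose signals ran most like those of single members over the 11 arrays were sought by Pearson correlation, as a description. For Scube2 they were Prdm8 (r = 0.989), Zic1 (0.988) and Fez1 (0.986). For Ptch1 they were Socs5 (0.976), Sdc4 (0.959) and Lhfpl4 (0.952), and for Gli1 they were Coro1a (0.974), Letmd1 (0.973) and 2610301B20Rik (0.965). The nearest to Shh were further off, Nacc2 (0.895), Cox19 (0.877) and the keratin gene Krt8 (0.842), each over 11 arrays. The points share the regions, stages and RNA quality of the arrays, so that a high value says only that the signals moved alike over these 4 groups.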

How the data were processed

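RNA of 11 samples was measured on 1-colour Affymetrix mouse arrays, after a 2-cycle labelling of 50 ng of RNA per the labels' protocols. The authors deposited log2 signal values for 45101 probe sets, from 2.37 to 14.7 with 0 missing; the submitters' processing notes name MAS5, without its role or version, and the normalization behind the values is not given in the sources used here. The values were used as deposited. Probe sets with several gene symbols (932), none (9160) or a control role (64) were left out, the probe set of highest mean over 11 arrays represented a gene, and genes entered the test if that mean reached 4.30 (log2), the 40th percentile over the whole array. The array number limits the precision.

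The 4 group means were fitted to 13338 genes in 1 model with limma 3.58.1 in R 4.3.3 (eBayes with an intensity trend, 7 residual degrees of freedom), a fit checked on simulated data. Adjusted p-values are Benjamini-Hochberg values from limma over all these genes, with a threshold of 0.05. The members and gene lists were chosen with earlier results of these data known. Genes named beside the members were mainly at most 3 of smallest p of each hedgehog list, relatives of a member, markers past the threshold and the 3 most correlated genes. Slit2, Sulf1, Ihh, Dhh, Meox1, Nkx2-2, Sox3 and Fkbp8 were named outside this rule, as limits or examples. Alternatives were quantile normalization, median centring, no filter or one at the 60th percentile (5.65), the mean of a gene's probe sets or each alone, eBayes without a trend, only the groups compared, the replicate number as a factor or (stage by number) a random block, the 3-prime minus 5-prime signal as a covariate, each array left out, and open E9.5 arrays 1 and 2 both left out. A group left with 1 array was taken to vary as the others do.

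The labels do not say that replicate numbers mark litters, so the main fit uses no pairing. Deviations from the group means of closed and open arrays of 1 number correlated across genes. The correlations were 0.308, 0.341 and 0.687 at E9.5 and 0.576 and 0.697 at E8.5. In the alternative with a random block, and not in the main fit, the numbers were therefore taken to pair regions. This is a hint from the data: with 2 closed E8.5 arrays the deviations are mirror images, pairs of different number reached 0.317 at E9.5 and 0.309 at E8.5, and the highest correlation of all, 0.756, joined closed E8.5 array 2 with open E9.5 array 3, both of low 3-prime minus 5-prime signal. Across stages they did not (0.303, −0.529 and −0.323 in open tissue). The correlation within random blocks was 0.455.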

Additional observations from a re-analysis of the deposited data

Results flagged for a closer look

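The regional difference of Shh changed between the stages by 1.63 (log2; SE 0.19, limma interaction, adjusted p = 0.00168): closed tissue was above open tissue on every array at E9.5 and below it on every array at E8.5. It was picked out because the effect of region differed between the 2 stages by a test of that difference. Over the 22 alternatives in which it was run, the change lay between 0.98 and 1.75, and the highest adjusted p was 0.0194. The mean of the notochord genes other than Shh was 6.04 to 6.17 in closed and 5.83 to 6.09 in open tissue at E9.5, against 5.82 to 6.16 in closed and 6.10 to 6.25 in open tissue at E8.5, and the part of attached notochord in the change was not tested.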

How the results depend on the processing

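Of 1130 values of single members under 23 alternatives, none changed direction while past the threshold, 1098 stayed on the same side of it, 14 came to pass and 18 no longer passed; those are named beside the results, all of them for Ptch1, Gli1, Hhip, Boc, Cdon or Shh. With a random replicate block 8 members passed at E9.5 (5 without it) and 8 at E8.5 (6 without it), and all genes past the threshold numbered 2333 and 1516. The replicate number as a factor changed no member's call. All these counts of members include Hhip, whose regional call was fixed by the filter, so they are a description and not support. Without open E9.5 arrays 1 and 2, 3 members passed at E9.5 and 0 between the stages in open tissue. With the 3-prime minus 5-prime covariate 2 passed between the stages in closed tissue. With each array left out in turn, 5 to 5 members passed at E9.5, 4 to 7 at E8.5, 0 to 1 between stages in open tissue, 1 to 1 in closed tissue and 1 to 1 in the interaction.

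All genes past the threshold numbered 1139 at E9.5, 957 at E8.5, 670 and 323 between stages in open and closed tissue, and 167 in the interaction. With the covariate these counts moved by over 1.5 times, except in open tissue (1764, 1519, 1003, 730 and 297). They also moved that far without open E9.5 arrays 1 and 2 (603 at E9.5, 182 in open tissue, 72 in the interaction). The same held with a random block (2333 at E9.5, 1516 at E8.5, 492 in the interaction) and with only the groups compared in closed tissue (150). With each array left out they ran from 792 to 1533, 654 to 1097, 367 to 1262, 174 to 375 and 84 to 239. Hhip could not be measured with the filter at the 60th percentile or with the mean of its probe sets, which lay under the filter. A group of 2 or 3 arrays limits what can be told apart, most of all for Gli1.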
